A study of Homo sapiens with 4 samples.

Results

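The H3K9me3 peaks beside the centromere of chromosome 4 were described in Ishikawa, an established cell line from a human endometrial cancer. Every deposited peak of chromosome 4 with its summit, the position of highest enrichment, between 44600000 and 56900000 (hg38) was taken, with lines of equal start and end counted as 1 peak. Peaks were taken by position alone, but the window was chosen with earlier results of these data known. It gave 66 of the 1165 peaks of the NC list and 165 of the 3785 peaks of the OE-KDM4A list, 231 of 4950 in all, in a window of 12.3 Mb. NC cells had no treatment, and the labels do not spell the abbreviation out. OE-KDM4A cells carry a treatment label that names KDM4A, a demethylase of methylated lysines 9 and 36 of histone H3, and the labels give neither a vector nor a level of the protein. For each condition there was 1 ChIP and 1 input library, both numbered 2, and 1 peak list of the ChIP library. The values below therefore compare 2 libraries, without a replicate of either condition, and no difference between them was tested.

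H3K9me3, trimethylated lysine 9 of histone H3, marks constitutive heterochromatin. SUV39H enzymes write the mark, HP1 proteins bind it, and KDM4 demethylases remove it. In human cells it is dense on the satellite repeats at and beside centromeres, where it takes part in silencing repeats and in the cohesion of sister chromatids. The hg38 assembly fills centromeres with modelled arrays of alpha satellite, and short reads from such repeats can match several places. The sources used here do not give how reads with several matches were handled.

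The centromere itself is not marked in the files. Its place was taken as the longest stretch of chromosome 4 without a gene in RefSeq, from 49589729 to 51833883 (2.24 Mb). The pseudogene SNX18P25 bounds it on the short arm and DCUN1D4, of the DCN1-domain family that acts in cullin neddylation, on the long arm. The midpoint of the stretch, 50711806, was used to split the window into a short-arm and a long-arm side. The stretch and its flanks give 4 zones: the short-arm flank, the short-arm part of the stretch, the long-arm part of the stretch and the long-arm flank.

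Most peaks of both lists lay on the short-arm side, and most of those were packed into a small part of it. In NC, 51 of 66 peaks (77.3%, exact Clopper-Pearson 95% interval 65.3 to 86.7) lay on the short-arm side and 15 on the long-arm side. In OE-KDM4A, 135 of 165 peaks (81.8%, 75.1 to 87.4) lay on the short-arm side and 30 on the long-arm side. Both shares overlap within their intervals, which cover counting error only, here and below. By zone, NC had 36 peaks in the short-arm flank, 15 in the short-arm part of the stretch, 14 in its long-arm part and 1 in the long-arm flank. OE-KDM4A had 86, 49, 28 and 2 in the same order. Peaks were thus found on both sides, but almost none lay in the long-arm flank, beyond DCUN1D4.

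OE-KDM4A had 2.50 times as many peaks as NC in the window (exact 95% interval of the ratio of 2 counts, 1.87 to 3.38), against 3.25 times (3.04 to 3.47) over the whole lists. The ratio was 2.65 (1.90 to 3.73) on the short-arm side and 2.0 (1.04 to 4.0) on the long-arm side, and these intervals overlap widely. In bases covered by peaks, NC had 12256 and OE-KDM4A 41574, a ratio of 3.39. The window held 5.67% of the NC list (4.41 to 7.15) and 4.36% of the OE-KDM4A list (3.73 to 5.06). The ratio depends on how peaks are counted. Fold enrichment is the deposited ratio of ChIP signal to background at the summit. With a lower limit of 5 on it the ratio of peak numbers was 9.57, with 14 NC and 134 OE-KDM4A peaks. With peaks within 1 kb joined into 1 it was 1.73.

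Peak strength is given by 4 values at the summit with the highest −log10 q of each peak. The deposited fold enrichment and −log10 q, the peak caller's significance after correction for multiple testing, are the authors'. The pileup, which counts the ChIP fragments stacked at the summit, and the control background that the peak caller set against it were recovered from the authors' fold enrichment and −log10 p. Pileups are not scaled between the libraries, whose depth is unknown.

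**Figure D1:**
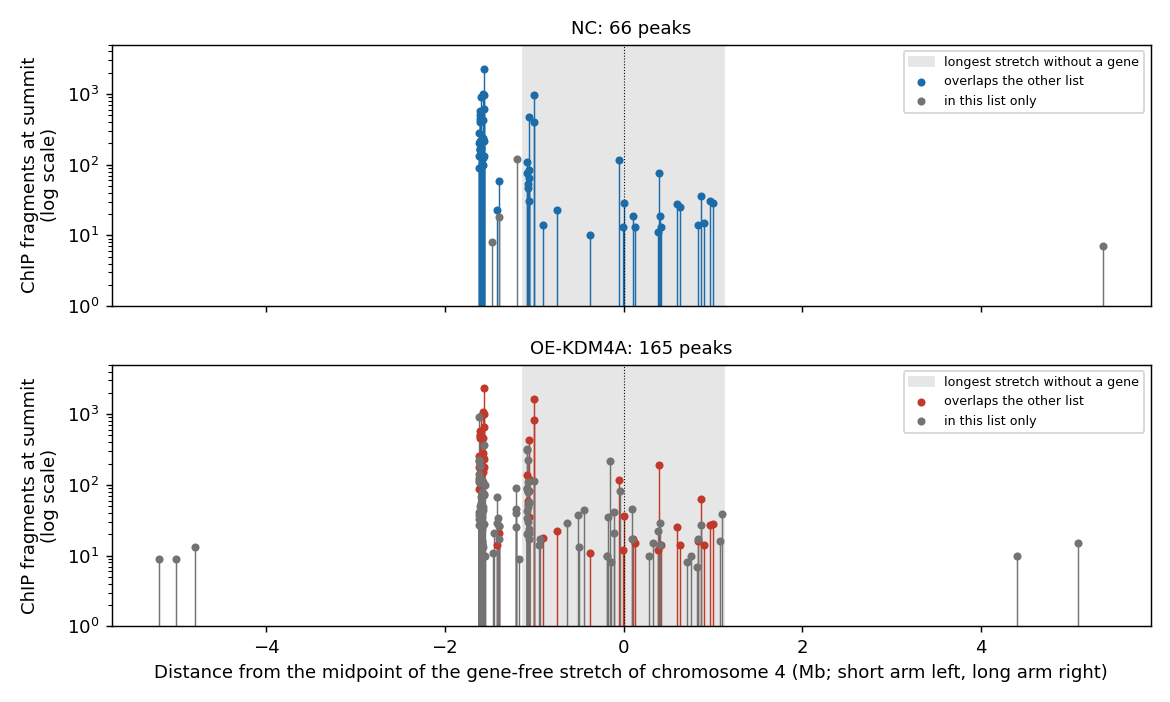
Each stem is a peak, placed by the distance of its summit from the midpoint of the gene-free stretch (Mb, horizontal axis) with its ChIP pileup in fragments (vertical axis, log scale), for the 66 NC peaks (top) and the 165 OE-KDM4A peaks (bottom). Stems crowd just outside and just inside the short-arm end of the grey stretch, reach 2239 fragments in NC and 2351 in OE-KDM4A, and are sparse and below 200 fragments on the long-arm side.

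Pileup was highest in the short-arm flank and lower towards the long arm in both lists. In NC the median pileup was 187 fragments in the short-arm flank, 65 in the short-arm part of the stretch and 22 in its long-arm part. In OE-KDM4A it was 76.5, 42 and 16.5 in the same zones. On the long-arm side the highest value was 76 fragments in NC and 193 in OE-KDM4A, as the plot of pileup along the window shows. Control background followed the same order. Its median was 58.3, 21.7 and 1.49 in NC and 7.49, 5.45 and 0.905 in OE-KDM4A, where 0.905 is the lowest background of that list. Fold enrichment therefore ran the other way in NC, with medians of 2.90, 3.86 and 8.08 in these zones, while in OE-KDM4A it stayed between 7.35 and 8.40. As a result, a limit on fold enrichment of at least 5 left only 28.6% of the NC peaks of the window on the short-arm side.

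Peaks with several summits were more frequent in the window than over the whole lists, and the widest peaks belonged to OE-KDM4A. Their median width was 150 bp (121 to 578) for NC and 172 bp (108 to 1254) for OE-KDM4A, and the shortest peaks stand at the shortest width of each list. Peaks with 2 or more summits made up 9 of 66 in NC (13.6%, 6.43 to 24.3) and 34 of 165 in OE-KDM4A (20.6%, 14.7 to 27.6). Over the whole lists, these shares were 4.55% and 5.68%. Peaks of the window were also stronger, with a median pileup of 113 against 12 in NC and 40 against 10 in OE-KDM4A. Shares among peaks of equal strength were not compared. Peaks with several summits were not particular to chromosome 4: near the centromeres of chromosomes 1, 9 and 16 together the shares were 10.7% and 23.2%, and near that of chromosome 10, 2 of 43 NC and 33 of 194 OE-KDM4A peaks had 2 or more. In OE-KDM4A all 34 lay on the short-arm side, 24 of 86 peaks in the short-arm flank (27.9%) and 10 of 49 in the short-arm part of the stretch (20.4%). None of the 28 OE-KDM4A peaks in the long-arm part had more than 1 summit, for which the interval reaches up to 12.3%. In NC, 6 of 36, 2 of 15 and 1 of 14 peaks of these zones had 2 or more summits.

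Width in OE-KDM4A ran in the same order as the share with several summits, with medians of 199, 171 and 154 bp from the short-arm flank to the long-arm part. In NC the medians of the same zones were 149.5, 147 and 158.5 bp, and so showed no such order. Neighbouring summits within a peak were a median of 207 bp apart in NC (83 to 229, 11 gaps) and 228 bp in OE-KDM4A (92 to 421, 55 gaps). The widest NC peak, from 49109497 to 49110074, measured 578 bp and had 3 summits with pileups of 127, 404 and 175. The next widest, 437 bp from 49105363 to 49105799, also had 3 summits, and the one from 49650498 to 49650832 measured 335 bp with 2. These NC peaks lie within OE-KDM4A peaks or overlap them.

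The widest OE-KDM4A peak ran over 1254 bp, from 49118437 to 49119690. It had 5 summits with pileups of 127, 85, 938, 88 and 66 fragments, so 1 strong summit stood among 4 weaker ones. NC had a single peak of 148 bp there, from 49118898 to 49119045, with 906 fragments at a summit 1 bp from the strong one. The peak from 49709230 to 49710175 measured 946 bp and had 4 summits with pileups of 1647, 363, 51 and 148. The peak from 49119840 to 49120738 measured 899 bp and had 3 summits. The other OE-KDM4A peaks with 4 summits, from 49123131 to 49123949 and from 49710345 to 49711050, reached 78 and 114 fragments at their highest summits, and neither overlapped an NC peak.

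**Figure D2:**
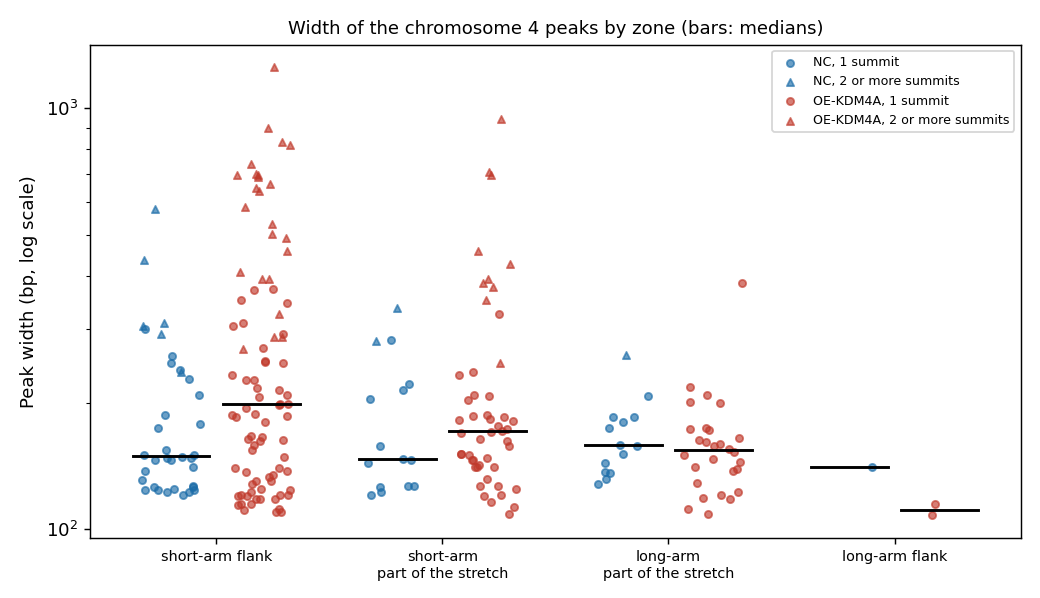
Width of every peak in bp (vertical axis, log scale) by zone (horizontal axis), with triangles for peaks of 2 or more summits and black bars for the median of each list and zone. OE-KDM4A peaks reach 1254 bp in the short-arm flank and 946 bp in the short-arm part of the stretch, while in the long-arm part their median of 154 bp is close to the 158.5 bp of NC.

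Nearly all NC peaks of the window were found again in OE-KDM4A. Of 66 NC peaks, 62 overlapped an OE-KDM4A peak by at least 1 bp (93.9%, 85.2 to 98.3), where 34.7% of all NC peaks did. Of 165 OE-KDM4A peaks, 61 overlapped an NC peak (37.0%, 29.6 to 44.8), where 10.2% of all OE-KDM4A peaks did. Peaks of the window were also stronger than those of the whole lists. Median pileup was 113 against 12 in NC and 40 against 10 in OE-KDM4A. Whether the shares differ between peaks of equal strength was not tested. The share of NC peaks was alike on the 2 sides, 48 of 51 (94.1%) on the short-arm side and 14 of 15 (93.3%) on the long-arm side. The share of OE-KDM4A peaks was 47 of 135 (34.8%, 26.8 to 43.5) and 14 of 30 (46.7%, 28.3 to 65.7), and these intervals overlap. In the long-arm part of the stretch 14 of 28 OE-KDM4A peaks were shared, against 15 of 49 (30.6%) in the short-arm part and 32 of 86 (37.2%) in the short-arm flank. All NC peaks of both parts of the stretch were shared, so the OE-KDM4A shares there only restate the peak numbers of the 2 lists.

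The shared regions coincided closely. The nearest summits of an NC peak and its OE-KDM4A partner were a median of 4 bp apart and at most 34 bp, and in 50 of 62 regions they lay within 10 bp. Over all 404 regions called in both lists the median was 5 bp and 315 lay within 10 bp, so such closeness was not particular to the window. Paired values below come from the summit of highest −log10 q in each peak, which is not always the nearest. Those summits were 391 bp apart at the NC peak beginning at 49098999 and 425 bp apart at 49107350. The NC peak lay wholly inside its OE-KDM4A partner in 49 regions, and the reverse held in 5. The OE-KDM4A peak was the wider one in 52 of 62, with median widths of 242.5 against 150.5 bp. Over all 404 regions called in both lists the NC peak lay inside its partner in 287, and the OE-KDM4A peak was wider in 305. A rule that asks for an overlap of at least 50% of both peaks left 62.1% of the NC peaks and 24.8% of the OE-KDM4A peaks shared. The OE-KDM4A peak from 49107308 to 49107942 covered 2 NC peaks, so 62 regions rest on 61 OE-KDM4A peaks.

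At the 62 shared regions fold enrichment was higher in OE-KDM4A, while the ChIP pileup was about equal in the 2 libraries and the control background was lower. Fold enrichment was higher in OE-KDM4A in 57 of 62 regions, against 78.7% of all regions called in both lists, with medians of 12.3 in OE-KDM4A and 3.39 in NC. The median log2 ratio of fold enrichment, OE-KDM4A over NC, was 1.89. Pileup was higher in OE-KDM4A in 36 regions and lower in 26. Its median log2 ratio was 0.06 (quartiles −0.14 and 0.22), with medians of 120.5 fragments in OE-KDM4A and 122 in NC. Control background was lower in OE-KDM4A in 57 of 62 regions, against 81.4% of all such regions, with medians of 7.78 and 33.6. Its median log2 ratio was −1.79. The higher fold enrichment of OE-KDM4A thus went with a lower background and not with a higher pileup, and why the background differed was not tested. Higher fold enrichment over a lower background was also found near other centromeres. On chromosomes 1, 9 and 16 fold enrichment was higher in OE-KDM4A in 61 of 66 shared regions, with median log2 ratios of 2.53 for fold enrichment and −2.07 for background. Unlike in the window, pileup was higher there too, in 48 of 66 regions, with a median log2 ratio of 0.62. On chromosome 10 fold enrichment was higher in 30 of 34, with 1.40 and −1.55, and the median log2 ratio of pileup was 0.21.

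The background can be read in input fragments for part of the regions. Backgrounds of the members moved in steps of 0.426 in NC and 0.778 in OE-KDM4A, the worth of 1 input fragment in each list, and this reading was made after seeing the data. Both backgrounds were whole multiples in 37 shared regions, within 0.05 of a step. Of these, 28 lay in the short-arm flank, 8 in the short-arm part of the stretch and only 1 in its long-arm part. Over the 37 regions, which thus stand mainly for the short-arm flank, the median was 137 input fragments in NC and 18 in OE-KDM4A. These counts, here and in the examples below, are not scaled between the libraries. Since 1 input fragment was worth less in NC, they differ more between the lists than the backgrounds do. A background at the lowest of its list has no such reading, and in all 5 regions where the background was higher in OE-KDM4A that of NC was at its lowest, so those regions could not enter. The regions with the highest pileups in NC are examples. At the NC peak from 49149395 to 49149518 the pileup was 2239 in NC and 2351 in OE-KDM4A, over 2428 and 91 input fragments, and the summits were at the same base. At the NC peak from 49139649 to 49139789, the one with the highest −log10 q of the window in NC (251), the pileup was 989 in NC and 1065 in OE-KDM4A, over 615 and 37 input fragments.

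**Figure D3:**
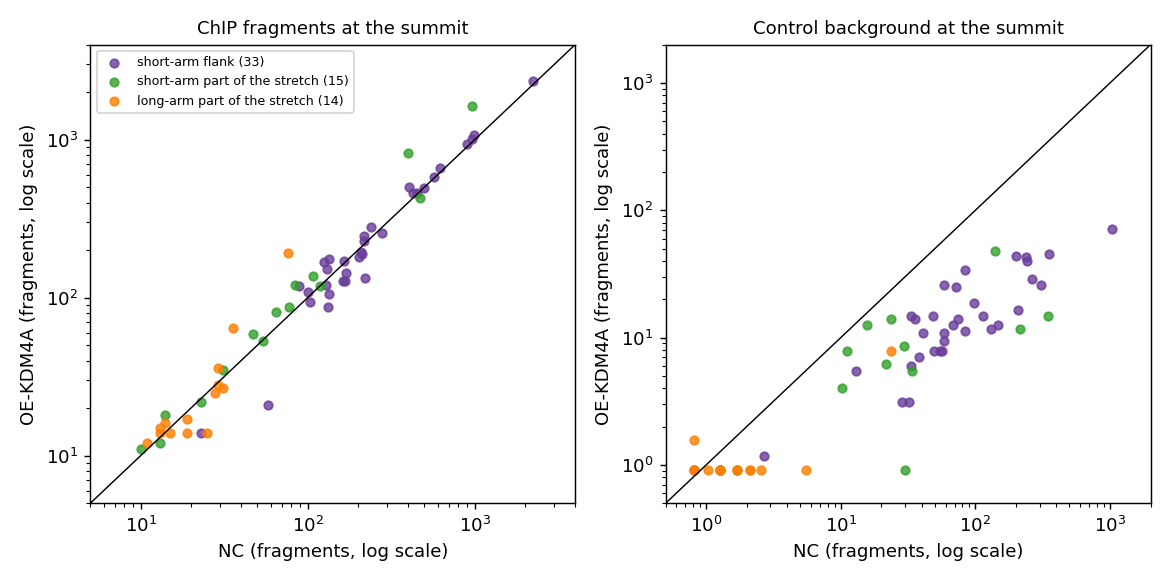
ChIP pileup (left) and control background (right) at the summit, in fragments on log scales, for NC (horizontal axis) and OE-KDM4A (vertical axis) at the 62 shared regions, coloured by zone, with a line of equality. Pileups lie along the line (median log2 ratio 0.06), whereas 57 of 62 backgrounds lie below it.

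Fold enrichment and background are given by zone, with a limit on the long-arm part. In the 33 shared regions of the short-arm flank the median log2 ratio was 2.51 for fold enrichment, 0.04 for pileup and −2.49 for background. The 15 regions of the short-arm part had 1.14, 0.18 and −1.35, and the 14 of the long-arm part 0.40, 0.03 and −0.70. The pileup ratio was thus near 0 in all 3 zones. In the long-arm part 12 of the 14 OE-KDM4A backgrounds stood at the lowest of the list and the NC median was 1.49, so the background ratio there had little room below its value and the zones cannot be ranked by it or by fold enrichment. OE-KDM4A partners had a median width of 373 bp against 150 bp in NC in the short-arm flank, and 155.5 against 158.5 bp in the long-arm part.

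Pileup differed by 1.5 times or more in 9 of the 62 shared regions. It was higher in OE-KDM4A by that much in 4 regions, where 17.1% of all regions called in both lists were. It was lower by that much in 5, where 20.5% of all were, and the other 53 lay within 1.5 times. The 4 higher regions included the pair of strong neighbours in the short-arm part of the stretch. At the NC peak from 49709344 to 49709547 the pileup was 971 in NC and 1647 in OE-KDM4A, over backgrounds of 344.5 and 14.8, and the fold enrichment of 104.4 in OE-KDM4A was the highest of the window. At the NC peak from 49711616 to 49711896 the pileup was 401 and 827, over backgrounds of 213.4 and 11.8. The other 2 were on the long-arm side and are described with it. The 5 lower regions began at 49098562 (132 fragments in NC and 87 in OE-KDM4A), 49104374 (220 and 134), 49299431 (23 and 14), 49313973 (58 and 21) and 51339508 (25 and 14). Fold enrichment was also lower in OE-KDM4A at 49313973, at 3.41 against 4.20, and at 51339508, at 7.87 against 11.4.

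The peaks of both lists clustered in the same few places. Peaks were chained into a block where neighbouring summits of either list lay within 50 kb, and a block needed at least 3 peaks. The 13 blocks held 211 of the 231 peaks, 63 of NC and 148 of OE-KDM4A, and 12 blocks held peaks of both lists. Blocks were made from both lists together and 62 of 66 NC peaks were shared, so the count of 12 largely restates that overlap. The 2 blocks with the most peaks spanned 0.813% of the window. Of the NC peaks 39 lay in them (59.1%, 46.3 to 71.0), and of the OE-KDM4A peaks 95 did (57.6%, 49.7 to 65.2). The number of blocks depends on the chaining distance, with 8 at 10 kb and 1 at 200 kb.

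The block with the most peaks lay in the short-arm flank, from 49091343 to 49166011 (74.7 kb). Its closest protein-coding gene was CWH43, which acts in the remodelling of GPI anchors, 29.3 kb away, and its last OE-KDM4A peak fell within the lncRNA LOC101927209. It held 31 NC peaks, all of them shared, and 68 OE-KDM4A peaks, of which 30 were shared and 38 were not. Peaks covered 8.31% of the block in NC and 29.7% in OE-KDM4A. The median distance between neighbouring summits was 1.32 kb in NC and 0.825 kb in OE-KDM4A. Median pileup was 211 in NC and 114.5 in OE-KDM4A, over median backgrounds of 72.4 and 8.52, and 5 NC and 23 OE-KDM4A peaks had 2 or more summits. Of the 10 NC peaks with the highest −log10 q in the window, 8 lay here: those beginning at 49139649 (251), 49149395 (224), 49147287 (186), 49118898 (129), 49110676 (108), 49154431 (88.1), 49137176 (87.1) and 49142082 (71.0). At 49147287 the pileup was 958 in NC and 1017 in OE-KDM4A, and at 49110676 it was 501 and 492. Of the 10 highest OE-KDM4A peaks, 8 lay here as well, and 7 of them contained one of these NC peaks.

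**Figure D4:**
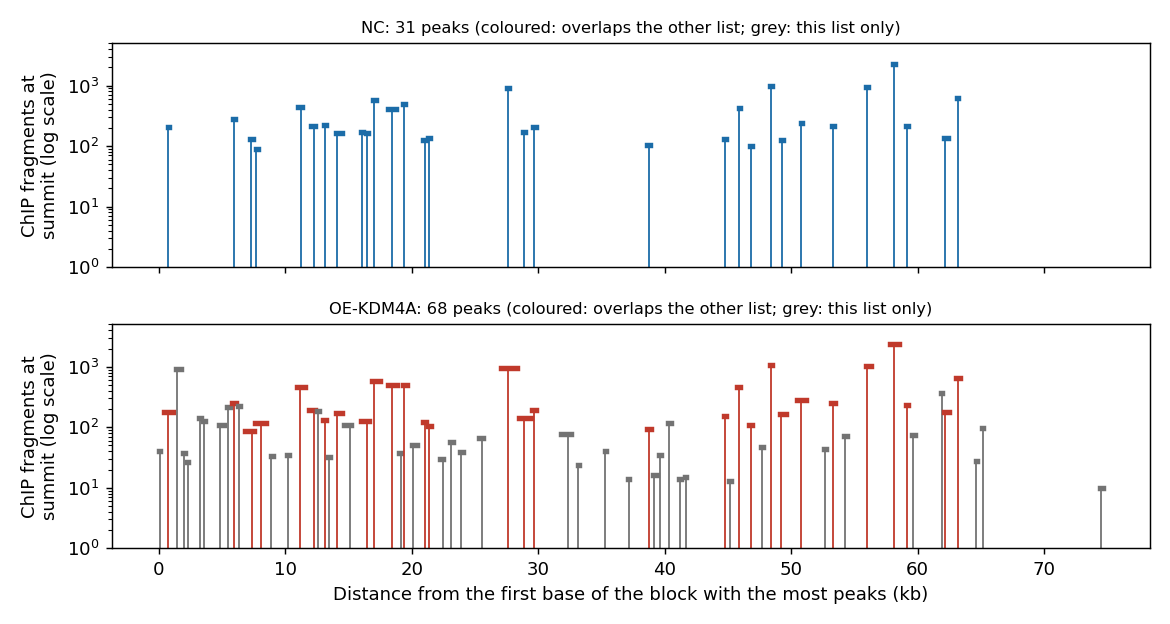
ChIP pileup in fragments (vertical axis, log scale) of the peaks of the block with the most peaks, by distance from its first base in kb (horizontal axis), with horizontal bars for peak width, for NC (top, 31 peaks) and OE-KDM4A (bottom, 68 peaks). Each NC peak has a coloured OE-KDM4A peak below it, in 29 of 31 cases with a pileup within 1.5 times, and the 38 grey OE-KDM4A peaks stand between them, most of them lower.

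The block with the next most peaks lay just inside the short-arm end of the stretch, from 49632600 to 49657884 (25.3 kb), 42.9 kb from SNX18P25. It held 8 NC peaks, all shared, and 27 OE-KDM4A peaks, of which 8 were shared. Neighbouring summits were a median of 2.76 kb apart in NC and 0.722 kb in OE-KDM4A. Median pileup was 71 in NC and 57 in OE-KDM4A. The strongest NC peak of this block, from 49657546 to 49657689, had 470 fragments in NC and 428 in OE-KDM4A. The next block, only 2.72 kb long from 49709230 to 49711952, held 2 NC and 3 OE-KDM4A peaks with 3 and 11 summits. OE-KDM4A peaks covered 86.2% of it and NC peaks 17.8%. It contains the regions with pileups of 971 and 1647 and of 401 and 827 described above, and the peak that ranked first by −log10 q (2660) among those of OE-KDM4A in the window.

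The other short-arm blocks were thinner. The block from 49236642 to 49319839 held 4 NC and 10 OE-KDM4A peaks, of which 2 in each list were shared. The block from 49510208 to 49546236, a place of pseudogenes and of LOC107986214, held 1 NC and 5 OE-KDM4A peaks with no overlap between the lists. The block from 49762982 to 49809806 held 1 NC and 3 OE-KDM4A peaks. Deeper in the stretch, the block from 50523609 to 50606009 held 7 OE-KDM4A peaks and no NC peak. Its OE-KDM4A peaks had between 8 and 220 fragments, and the highest, from 50556039 to 50556189, stood over a background of 59.1, with a fold enrichment of 3.68. The block from 50662258 to 50720947 spans the midpoint and held 3 NC peaks, all shared, and 4 OE-KDM4A peaks. Within it, at the NC peak from 50662286 to 50662408, the pileup was 118 in NC and 119 in OE-KDM4A. The background there was 29.8 in NC and at the lowest value of the list in OE-KDM4A, 32.9 times lower.

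On the long-arm side the 14 shared regions all lay in the stretch, in small groups spread along it. Median spacing of NC peaks was 36.5 kb in the long-arm part, against 1.56 kb in the short-arm flank. For OE-KDM4A it was 25.8 and 0.970 kb. In the long-arm part 22 of 28 OE-KDM4A peaks (78.6%) stood at the lowest background, against 45 of 165 (27.3%) in the window. Over the whole list 1861 of 3785 (49.2%) did, and in the rest of chromosome 4 67.6% did. Pileup was higher in OE-KDM4A in 7 of the 14 and lower in 7, and fold enrichment was higher in 10.

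The shared regions of the long-arm side are given from the midpoint outwards by the first base of the NC peak, with the pileup in NC and then in OE-KDM4A. The region at 50720803 had 29 and 36 fragments, and those at 50822212 and 50835475 had 19 and 17 and 13 and 15. The group with the most peaks of this side, the block from 51093080 to 51127558, held 4 NC and 7 OE-KDM4A peaks. In it, the regions at 51097837, 51116630 and 51127423 had 11 and 12, 19 and 14, and 13 and 14 fragments. These 6 regions differed by less than 1.5 times between the libraries.

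The region at 51107284, in the same block, had the highest pileup of the long-arm side in both lists, although its NC fold enrichment of 3.15 was the lowest there. It had 76 fragments in NC and 193 in OE-KDM4A, over backgrounds of 23.4 and 7.78. The summits behind these values were 102 bp apart, since the NC peak had 2 summits, the other with 98 fragments. Farther out, the region at 51311702 had 28 and 25 fragments and that at 51339508 had 25 and 14. In the block from 51533176 to 51616977 the region at 51573709 had 36 and 64 fragments, over backgrounds of 1.70 and 0.905, while those at 51547978 and 51616804 had 14 and 16 and 15 and 14. The last shared regions, at 51680741 and 51717275, had 31 and 27 and 29 and 28 fragments. They form a block that ends 116 kb before DCUN1D4.

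The 104 OE-KDM4A peaks without an NC partner were weaker than the 61 shared ones, and most lay close to an NC peak. Their median pileup was 33.5 (7 to 922) against 120, their median −log10 q 12.7 against 83.8 and their median width 152.5 against 236 bp. Peaks with 2 or more summits made up 11 of 104 (10.6%) against 23 of 61 (37.7%). Of the 104, 34 lay within 1 kb of an NC peak and 70 within 5 kb. With peaks within 5 kb counted as shared, 79.4% of the OE-KDM4A peaks were. The strongest, from 49092743 to 49093067, had 922 fragments, a fold enrichment of 28.1 and a −log10 q of 958, and lay 0.58 kb from an NC peak. In the block from 49632600, the peaks beginning at 49635144 and 49635453 had 315 and 320 fragments. The peak from 50676919 to 50677243 had 83 fragments, a fold enrichment of 32.9 and its nearest NC peak 14.5 kb away.

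The 4 NC peaks without an OE-KDM4A partner were mostly near the calling limit. The peak from 49236642 to 49236772 had 8 fragments and a −log10 q of 1.57, and the peak from 49319714 to 49319839 had 18 fragments and 1.46. The peak from 56078965 to 56079105 had 7 fragments and 1.67. The exception was the peak from 49514837 to 49515128, with 120 fragments, 2 summits, a −log10 q of 8.91 and a fold enrichment of 2.11 over a background of 56.2. The nearest OE-KDM4A peak lay 1.11 kb from it.

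Each list had a peak in 1 of the 55 protein-coding genes of the window. Over the genome, 1.93% of the protein-coding genes had an NC peak in their span and 4.67% an OE-KDM4A peak, so counts this small do not set the window's genes apart. The NC peak was the one from 56078965 in CRACD, a regulator of actin capping, 284 kb from any OE-KDM4A peak. The OE-KDM4A peak lay in KDR, the main VEGF receptor of endothelial cells (55078481 to 55125595), from 55112636 to 55112750, with 10 fragments and a −log10 q of 4.57. Both are weak, and neither passes a −log10 q of 5. Whether they lie in exons or introns was not analysed here, since the gene table gives spans only.

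Of the 3 receptor tyrosine kinase genes of the window, PDGFRA and KIT had no peak in either list. Their closest peaks were OE-KDM4A peaks at 814 and 372 kb. The 4 GABA-A receptor subunit genes GABRG1, GABRA2, GABRA4 and GABRB1 had none either, with the closest OE-KDM4A peak 118 kb from GABRG1 and the closest NC peak 1666 kb from GABRB1. The TEC-family kinase genes TXK and TEC, which act in lymphocyte signalling, had none, and TEC was 822 kb from the closest peak of each list. No peak overlapped any of the 110 RefSeq promoters of the window in the reference tables, but only 0.0712% of all promoters overlapped an NC peak and 0.0769% an OE-KDM4A peak. The 1 miRNA hairpin of the window had no peak either. The closest promoter was that of LOC101927209, 4.44 kb from an OE-KDM4A peak and 6.47 kb from an NC peak.

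At the outer edges of the window peaks were isolated and weak. NC had none before its first peak of the window, which began at 49092040. With 204 fragments and a place in the block with the most peaks, that peak was neither isolated nor weak. OE-KDM4A had isolated peaks farther out, at 45511780, 45703136 and 45917216, with 9, 9 and 13 fragments. The last OE-KDM4A peaks of the stretch, at 51795690 and 51810804, had 16 and 39 fragments, and the latter lay 22.9 kb from DCUN1D4. The last OE-KDM4A peak of the window, from 55795135 to 55795242, had 15 fragments. Just outside the window, the nearest NC peaks lay 5051 kb below and 921 kb above its bounds, with 8 and 9 fragments. The nearest OE-KDM4A peaks lay 2134 kb below and 568 kb above, with 7 and 10 fragments.

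Beside other regions, the window stood apart from the rest of chromosome 4 and less from other centromeres. In the rest of chromosome 4, 2 of 23 NC peaks (8.70%) and 2 of 176 OE-KDM4A peaks (1.14%) were shared and no peak had more than 1 summit, against 62 of 66 and 61 of 165 shared in the window. Most peaks of the rest of chromosome 4 were weak, with a median pileup of 8 in NC and 9 in OE-KDM4A, and peaks of equal strength were not compared. The ratio of peak numbers there was 7.65 (4.94 to 12.4), above the interval of the window. The longest gene-free stretch of chromosome 10 with 5 Mb at both ends held 43 NC and 194 OE-KDM4A peaks, and 79.1% (64.0 to 90.0) and 16.5% (11.6 to 22.5) of them were shared. The share of OE-KDM4A peaks that were shared was thus higher in the chromosome 4 window, with intervals that do not overlap, while the intervals for NC peaks do. As nearly every shared OE-KDM4A peak met a single NC peak, this share is capped by the peak numbers. Their ratio, OE-KDM4A over NC, was 4.51 on chromosome 10 and 2.50 in the window, so the difference in shares rests largely on peak numbers. The same regions of chromosomes 1, 9 and 16 together had shares of 78.6% (68.3 to 86.8) and 26.8% (21.1 to 33), with intervals that overlap those of the window. There the median log2 ratio of pileup at 66 shared regions was 0.62, with 36 of them at least 1.5 times higher in OE-KDM4A, against 4 of 62 in the window. Over all 342 shared regions outside the window that ratio was 0, with quartiles of −0.54 and 0.44, wider than the −0.14 and 0.22 of the window.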

How the data were processed

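H3K9me3 ChIP-seq peak lists of 2 immunoprecipitated Ishikawa libraries, NC and OE-KDM4A, were used. Library depth is unknown, and the 2 inputs enter only through the peak caller's background. The submitters' processing notes name Trimmomatic, Bowtie 1.1.2, MACS2 2.1.0 and hg38, with neither role nor settings. The deposited score is 10 times the −log10 q, with decimals dropped, in all lines, and was not used further. The deposited fold enrichment is a linear ratio, and the deposited −log10 p and −log10 q values are the authors', as is the deposited summit offset. The lists give 1 line per summit, 1234 in NC and 4187 in OE-KDM4A.

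Fold enrichment was read as (pileup + 1) / (background + 1) and p as a Poisson tail. In the window, 65 of 66 NC peaks and 162 of 165 OE-KDM4A peaks had a whole-number pileup that returned their −log10 p to within 0.001, and the largest miss was 0.00174. Backgrounds up to 0.1% from the list's lowest counted as lowest. The background steps were found after seeing the data. Above the lowest, 54 of 61 NC backgrounds and 90 of 120 in OE-KDM4A were whole multiples within 0.05 of a step. An NC peak was paired with the OE-KDM4A peak of highest −log10 q that overlapped it. Gene spans came from RefSeq, GRCh38.p14.

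The window, the gene lists, the zones and the named peaks were chosen with earlier results of these data known. Named were the top 10 peaks per list by −log10 q, the 3 widest, those among the 5 with the most summits, the outermost, all shared regions of the side with fewer, the genes of 3 lists and those with a peak, while further peaks were named after their values were seen. Alternatives were limits on −log10 q and fold enrichment, other overlap, joining, splitting and pairing rules, and other chaining distances. The steps were tested on simulated data, where 500 of 500 pileups, 40 of 40 planted overlaps and 5 of 5 planted blocks were recovered. Scripts ran in Python 3.11.15 with pandas 2.3.3, numpy 2.4.6, matplotlib 3.10.9 and scipy 1.17.1.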

Additional observations from a re-analysis of the deposited data

How the results depend on the processing

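Of 66 recomputed values, 44 were labelled the same, 22 moved and 0 reversed, and the cut-offs behind these labels are not stated. Values labelled the same could still shift clearly. Counting every line gave 220 OE-KDM4A peaks and a −log10 q limit of 10 left 112, where 165 were reported. The NC share on the short-arm side fell from 77.3% to 28.6% under the fold enrichment limit. The majority thus changed sides, although the label was moved. A fold enrichment of at least 5 moved most: it left 14 NC peaks, a ratio of peak numbers of 9.57, 28.6% of NC peaks on the short-arm side, 100% of NC and 10.4% of OE-KDM4A peaks shared, no NC peak (0%) with 2 or more summits, and 0 protein-coding genes with an NC peak. Fold enrichment is not equivalent between the lists, since the background was lower in OE-KDM4A. A −log10 q of at least 10 gave a median width of 199.5 bp and 27.7% of peaks with 2 or more summits in OE-KDM4A, and at −log10 q limits of 5 and 10 no protein-coding gene (0 in each list) kept a peak. Joining peaks within 1 kb gave 88 OE-KDM4A peaks and a ratio of 1.73. A split at the longest interval without a peak, which falls in the long-arm flank and not near the centromere, put 98.5% of NC and 98.8% of OE-KDM4A peaks on the short-arm side. Asking for 50% of both peaks left 62.1% of NC and 24.8% of OE-KDM4A peaks shared, and a distance of 5 kb made 79.4% of OE-KDM4A peaks shared. Chaining at 10 kb gave 8 blocks and at 200 kb 1. Other pairings of the shared regions, and leaving out the 2 with the highest NC background (chosen after seeing the data), kept the median log2 pileup ratio between 0.06 and 0.07. No paired analysis was possible because each condition has 1 immunoprecipitated library. The unknown depth of the libraries limits every comparison of peak numbers and pileups.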
